A study of Mus musculus with 12 samples.

Results

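In 6 mouse livers, 326 broad domains of acetylated histone H3 lay over the starts of 370 protein-coding genes. They covered the starts of liver transcription factor genes, of hormone and cytokine signalling genes and of genes for secreted plasma proteins. None of the 50 ribosomal protein genes, 31 proteasome genes and 49 respiratory chain genes that were looked up was among them, beside 1.69% of all 21911 protein-coding genes, and a count of 0 in lists of this size is near that share. Of the genes that started in a domain of any width with a peak in every library, 8.71% started in a broad one. In these lists the counts were 0 of 26, 0 of 17 and 0 of 31, and the difference was not tested. To find the broad domains, peaks of acetylation at lysine 9 of histone H3 (H3K9ac) from all 6 libraries were pooled, and peaks at most 500 bp apart were joined. A joined domain was kept when it was at least 4 kb wide, held the annotated start of a protein-coding gene (transcription start site, TSS; GENCODE release M21 on GRCm38, also called mm10) and contained a peak in each of the 6 lists. The 326 domains were therefore chosen by the width of the peaks themselves and by their presence in every library, so their width is a description and no test was made of it. They made up 326 of 18084 joined domains and of 3639 joined domains that held a gene start and a peak in every list. Summary values tied to one gene start (extents, profiles and the split by promoter CpG) use the 286 domains with 1 protein-coding start, and the other summaries begin from all 326.

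The H3K9ac libraries came from livers of adult mice, with chromatin precipitated by an antibody to H3K9ac and sequenced (ChIP-seq), and each library was made from 1 mouse. There were 2 libraries of C57BL/6J (B6), the strain of the reference genome, and 2 of MSM/Ms (MSM), an inbred line of wild mice from Japan. There was 1 library of F1 BM, the cross with the B6 strain on the maternal side and MSM on the paternal side, and 1 library of F1 MB, the reverse cross, so hybrid values have no replicate error. No group was treated or carried an engineered allele, and the 6 input libraries were not analysed here. The design asks whether the extent of acetylation differs between the strains. The files were peak lists without read counts, so the reads behind a single domain are unknown and counting intervals cannot be given. The study states sequencing yields, which were not used here. The lists held 11619 to 22968 peaks, and the longest and the shortest list were both from B6.

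Acetylation of H3 at lysine 9 is placed by histone acetyltransferases and removed by deacetylases, and it marks the nucleosomes next to active gene starts. At most active genes the mark forms a short block just inside the gene, with a gap over the start itself where nucleosomes are displaced. Some genes carry a much wider block, and wide blocks of active marks are known from genes that define a cell type and from genes that respond quickly to signals.

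Promoters under the domains ranged from rich to poor in CpG pairs, and 3 promoters from the 10 widest domains are shown here. Among the promoters of these 10 domains they are the pair with the most CpG pairs and the one with the fewest. Each runs from 250 bases before to 50 bases after the annotated gene start on GRCm38, read from the RefSeq GRCm38 genome, and is written 5′ to 3′ on the strand of the gene, with each CpG pair in capitals.
Klf15, chr6:90462326-90462625, plus strand: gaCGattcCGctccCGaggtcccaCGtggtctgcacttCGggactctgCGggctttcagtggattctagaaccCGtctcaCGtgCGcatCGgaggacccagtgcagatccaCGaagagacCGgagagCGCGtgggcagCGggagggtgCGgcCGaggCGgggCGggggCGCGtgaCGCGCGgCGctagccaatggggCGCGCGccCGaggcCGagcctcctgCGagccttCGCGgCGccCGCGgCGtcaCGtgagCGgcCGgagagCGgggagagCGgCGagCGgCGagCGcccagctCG
Hs6st1, chr1:36068150-36068449, plus strand: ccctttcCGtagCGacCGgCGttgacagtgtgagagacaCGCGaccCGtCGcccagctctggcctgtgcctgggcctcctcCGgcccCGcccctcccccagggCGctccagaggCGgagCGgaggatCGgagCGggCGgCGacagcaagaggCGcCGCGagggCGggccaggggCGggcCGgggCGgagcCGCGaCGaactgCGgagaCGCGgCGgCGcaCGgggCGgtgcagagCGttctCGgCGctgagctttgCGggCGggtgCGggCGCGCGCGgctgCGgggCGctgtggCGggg
Errfi1, chr4:150853669-150853968, plus strand: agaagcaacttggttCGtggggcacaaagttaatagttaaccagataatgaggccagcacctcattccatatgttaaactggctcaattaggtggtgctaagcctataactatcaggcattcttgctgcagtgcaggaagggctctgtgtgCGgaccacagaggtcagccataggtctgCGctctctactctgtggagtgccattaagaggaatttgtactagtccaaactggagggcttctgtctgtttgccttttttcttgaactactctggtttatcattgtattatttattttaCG

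The promoter of Klf15, a transcription factor of amino acid and glucose metabolism, held 47 CpG pairs. The promoter of Hs6st1, a heparan sulfate sulfotransferase, also held 47. The promoter of Errfi1, an inhibitor of the epidermal growth factor receptor, held 4.

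Domain width had a median of 5170.5 bp and ran from 4005 to 16709 bp. The domains summed to 1.86 Mb, and 286 of them held 1 gene start while 40 held more. The widest domain, chr16:23978165-23994873, held the start of Bcl6, a transcriptional repressor of lipid and inflammatory genes, and that of the small predicted gene Gm37419. Peaks covered 14467 and 7582 bp of it in the B6 libraries, 12881 and 12207 bp in the MSM libraries, 13618 bp in F1 BM and 9863 bp in F1 MB. Next in width was the domain of 14887 bp (chr2:164431770-164446656) over Sdc4, a cell surface heparan sulfate proteoglycan. A domain of 13342 bp (chr14:41099258-41112599) lay over Mat1a, which makes S-adenosylmethionine in the adult liver. The domain of 12198 bp at chr7:19690130-19702327 spanned Apoc1 and Apoe, neighbouring apolipoprotein genes on the same strand. The others of the 10 widest lay over Hs6st1, Slc29a1 (a nucleoside transporter, 11526 bp), Noct (a rhythmic phosphatase of metabolism, 11487 bp), Klf15, Sord (sorbitol dehydrogenase, 11360 bp) and Errfi1. At the lower limit, the domains of Alad, an enzyme of heme synthesis, and Mfsd2a, a lysolipid transporter, were just wide enough at 4005 and 4006 bp. Those of Larp1 and Wasl fell just short at 3998 and 3987 bp.

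**Figure D1:**
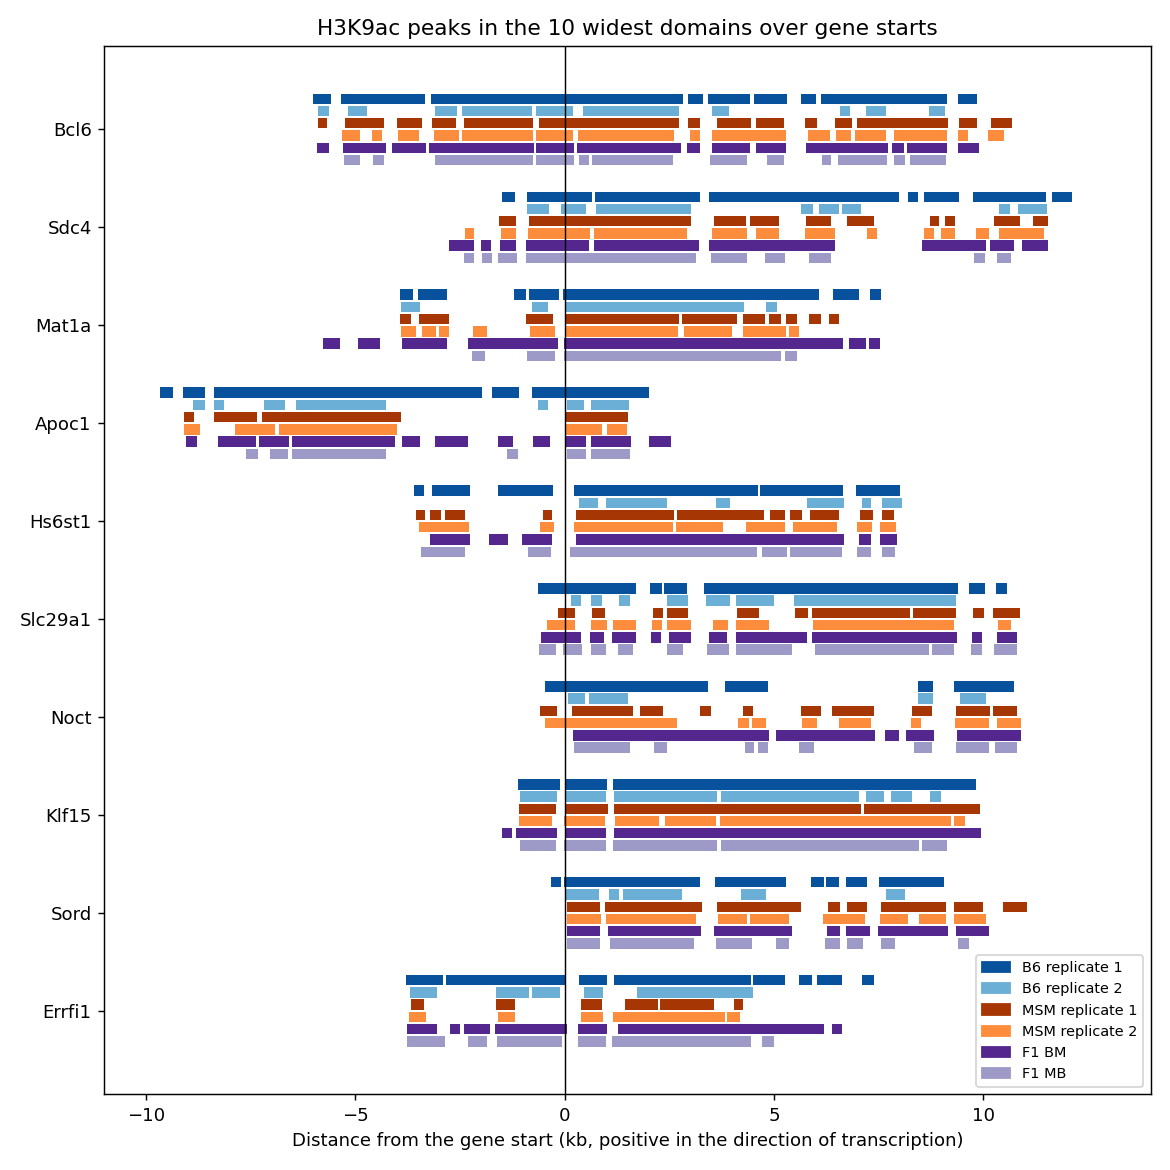
Peaks of each library in the 10 widest domains, drawn as blocks by distance from the gene start in kb, positive in the direction of transcription, with the 6 libraries of each gene as coloured rows. Each domain is a chain of blocks, from 3 peaks in B6 replicate 1 at Klf15 to 15 peaks in MSM replicate 2 at Bcl6. The rows for Bcl6 and Apoc1 also hold the starts of Gm37419 and Apoe.

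The libraries differed in how often a long run of joined peaks lay within a domain. A run of joined peaks of at least 4 kb was present within the domain in 241 of the 326 domains in B6 replicate 1 but in 54 in B6 replicate 2. It was present in 107 and 97 in the MSM libraries, in 188 in F1 BM and in 80 in F1 MB. In 30 domains all 6 libraries had such a run, among them those of Bcl6, Mat1a, Klf15, Cebpa (the C/EBPα transcription factor of hepatocytes), Igf1 (the main liver growth factor) and Cat (catalase). In 73 domains only B6 replicate 1 had one, and in 36 none did. The length covered in all 6 libraries at once had a median of 2011.5 bp, or 36.9% of a domain. This share was 36.8% in start domains under 1 kb, 24.99% at 1 to 2 kb and 30.2% at 2 to 4 kb, so it did not set the broad domains apart. One domain, that of the mineralocorticoid receptor gene Nr3c2, had 0 bp covered in all 6.

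Some domains were covered over most of their width in every library. The domain of Igf1 (6136 bp, chr10:87857822-87863957) was covered to 97.8% and 80.5% in B6, 97.7% and 94.7% in MSM, 100% in F1 BM and 93.6% in F1 MB. In 3 of the libraries it was a single peak. Fam169b, whose function is not established, was covered to at least 79.9% in every library. Slc10a1, the main sodium-driven bile acid importer of hepatocytes, was covered to at least 77.3%, and Klf15 to at least 76.9%. At these 4 domains F1 BM had the highest share.

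The domains lay over genes in a lopsided way. In the 286 domains with 1 start, the domain reached a median of 1093.5 bp upstream of the start and 3910.5 bp downstream of it, into the gene. It was longer downstream in 253 of 286 (88.5%), against 84.9% of 2775 single-start domains under 4 kb. At least 2 kb lay downstream in 265 domains and upstream in 73, and on both sides in 52. Introns took 60.6% of the sequence in the domains, exons 21.2% and sequence outside genes 18.2%. In start domains under 4 kb the shares were 44.4%, 35.3% and 20.3%.

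The start itself was often free of peaks. Of the 370 gene starts, a peak lay over the annotated start base in 64.9% and 24.1% in the B6 libraries, 37.3% in both MSM libraries, 40.0% in F1 BM and 34.9% in F1 MB. At 250 bp inside the gene, 94.8% and 79.4% of the 286 single-start domains were under a peak in B6, 87.4% and 88.1% in MSM, 84.6% in F1 BM and 85.3% in F1 MB. At 2 kb inside the gene the values were 81.8% and 52.8% in B6, 66.1% and 62.9% in MSM, 78.3% in F1 BM and 58.4% in F1 MB. At the same distance upstream they were 20.6% and 6.64% in B6, 11.9% in both MSM libraries, 16.1% in F1 BM and 8.74% in F1 MB. Each library dipped at the start and peaked just inside the gene. The strongest summit lay downstream of the start in 84.3% to 87.8% of the domains, at a median distance of 450 to 661.5 bp. The starts of Cebpa, Nfil3, Per1, Zfp36, Hhex and Junb, taken from genes described below, had a peak over them in 0 of 6 libraries. Those of Bcl6, Rxra, Ppara, Igf1 and Rbp4 had one in all 6.

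**Figure D2:**
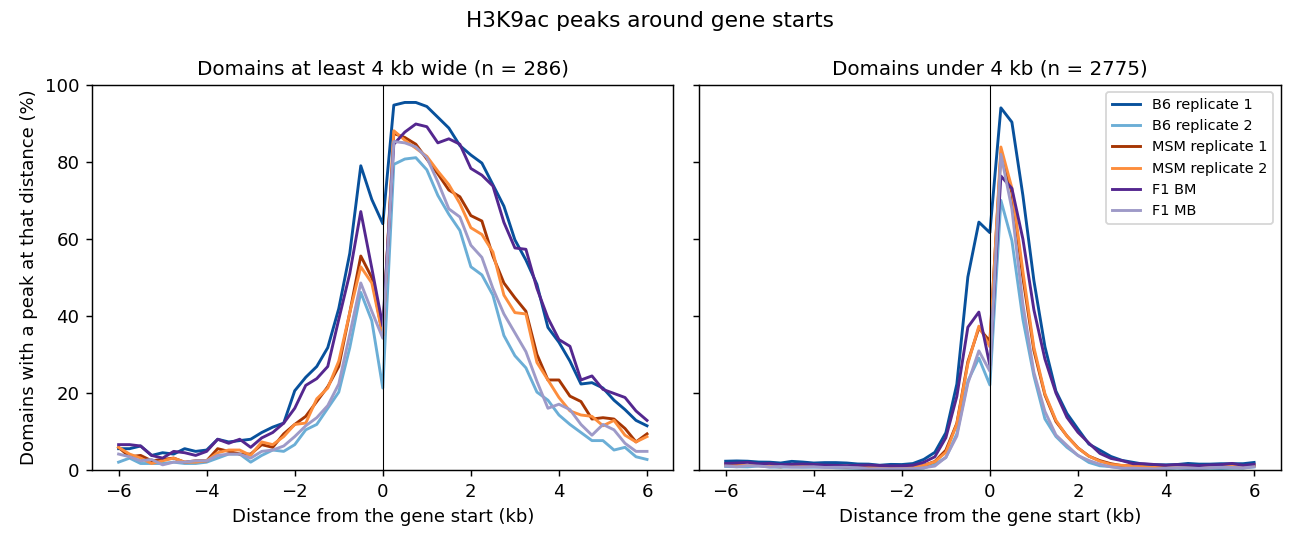
Percent of domains with a peak at each distance from the gene start, in steps of 250 bp, for the 286 broad domains with 1 start and for the 2775 narrower ones, with 1 line per library. In all 6 libraries the line falls at the start and rises just inside the gene, and in broad domains it declines slowly over the next 4 kb, reaching 14.3% to 33.9% there.

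A few domains reached far upstream of the gene start. Setd1b, a histone H3 lysine 4 methyltransferase, had 7166 bp of its 8888 bp domain upstream of its start, and the domain also held the starts of the long non-coding RNA genes 4932422M17Rik and AI480526. Ahsg, which encodes the plasma protein fetuin-A, had 5639 of 8389 bp upstream. Asl, a urea cycle enzyme, had 5708 of 5991 bp upstream, but its domain also held the start of Crcp. Prox1, a transcription factor of liver development, had 5149 of 7650 bp upstream, in a domain that also held the starts of the antisense genes Gm28172 and Prox1os. In other cases the domain took in a whole gene. This was so for 26 genes (7.03% of 370), which a wide domain can hold more easily than a narrow one. They were short genes such as Cebpa (2636 bp), Cebpb (1504 bp), Id2 (3342 bp), Id3 (2259 bp), Ier2 (1522 bp), Apoa2 (1326 bp), Apoe (3080 bp) and Cyp8b1 (1950 bp). A start of a long noncoding RNA gene lay in 64 domains, and a miRNA gene started in 6. One of these was Mir22, in the domain of Tlcd2.

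The genes were read by lists of known roles. Of all 21911 protein-coding genes, 1.69% started in a broad domain, and of the 4246 genes that started in a joined domain with a peak in every list, 8.71% did. The counts below are read against these shares as descriptions, since the lists were chosen with results of these data known, and no test was made of them.

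Transcription factors of hepatocytes were frequent. Of 30 such genes, 9 started in a broad domain, and they made up 50.0% of the 18 that had a domain in every list. Besides Bcl6 (16709 bp) and Klf15 (11436 bp) these included Prox1 (7650 bp), Onecut1 (HNF6, 7362 bp), Cebpa (6563 bp), Cebpb (5754 bp), Atf5 (a stress response factor, 5479 bp) and Hhex (4744 bp). Cebpa was covered to 97.1% and 65.2% in B6, 90.4% and 84.2% in MSM, 85.1% in F1 BM and 77.4% in F1 MB. Onecut1 was uneven, with 71.5% and 19.1% in B6, 73.3% and 87.0% in MSM, 41.4% in F1 BM and 11.8% in F1 MB. Its MSM values lay above both B6 values, and the F1 MB value was the lowest of all.

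Of 30 nuclear receptors of metabolism, 5 started in a broad domain. They were Nr1i2, the xenobiotic sensor PXR (10795 bp), Rxra, the shared dimer partner of these receptors (9543 bp), Ppara, the fasting-responsive receptor of fatty acid oxidation (9057 bp), Nr2f6 (4807 bp) and Nr1i3, the xenobiotic sensor CAR (4491 bp). Rxra was covered to 90.98% and 53.2% in B6, 66.9% and 66.6% in MSM, 69.3% in F1 BM and 54.1% in F1 MB. Of 20 genes of the circadian clock, 4 had a broad domain. Nfil3, a repressor of clock output, had 8648 bp, Bhlhe40 6832 bp, and the period genes Per2 and Per1 4639 and 4056 bp. The domain of Per2 was covered to 97.6% in B6 replicate 1 but to 20.2% in B6 replicate 2, with 41.1% and 34.8% in MSM, 56.1% in F1 BM and 23.3% in F1 MB. Strains overlapped at each of these 9 genes.

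Of 40 immediate early and stress genes, which respond to signals within minutes to hours, 11 started in a broad domain. Among them were Errfi1 (11191 bp), the mRNA decay factors Zfp36 (8878 bp), Zfp36l1 (7622 bp) and Zfp36l2 (5436 bp), the kinase gene Pim3 (6077 bp), the MAP kinase phosphatase Dusp6 (5872 bp), Ier2 (5426 bp), the NF-κB inhibitor Nfkbia (4419 bp) and Junb (4155 bp). Zfp36 was covered to 85.6% and 68.6% in B6, 72.0% and 77.9% in MSM, 78.6% in F1 BM and 68.3% in F1 MB.

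Insulin, growth hormone and cytokine signalling gave 14 of 33 genes, or 56.0% of the 25 with a domain in every list. The ligand gene was Igf1 and the receptors were Ghr (growth hormone receptor, 4584 bp), Egfr (4590 bp) and Il6ra (interleukin 6 receptor, 5667 bp). Inside the cell the list held Irs2 (an insulin receptor substrate, 7110 bp), Pik3r1 (a regulatory subunit of PI3 kinase, 4193 bp) and Foxo3 (5404 bp). It also held Trib1 (7163 bp), Smad7 (5196 bp) and the glycogen targeting subunits Ppp1r3b (7524 bp) and Ppp1r3c (4164 bp). Igfbp4 (8848 bp), which binds IGFs, and the inhibitors Id2 (8727 bp) and Id3 (8641 bp) were the widest. Id3 was covered to 83.3% and 28.7% in B6, 37.4% and 39.9% in MSM, 55.9% in F1 BM and 28.5% in F1 MB, while Igfbp4 had 82.3% and 54.5% in B6, 84.5% and 77.7% in MSM, 82.0% in F1 BM and 68.3% in F1 MB. B6 replicate 1 was far above the other libraries at Id3 but within their range at Igfbp4.

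Of 49 annotated genes for proteins secreted by the liver, 20 started in a broad domain, 57.1% of the 35 with a domain in every list. They encode apolipoproteins (Apoc1, Apoe, Apoa5, Apoa2, Apob and Apoc3), clotting and fibrinolysis proteins (Plg, 10241 bp, Fgg, 6823 bp, and F5, 5062 bp) and carriers (Alb, 5318 bp, Rbp4, 5369 bp, and Trf, 4601 bp). The others include Ahsg, Azgp1, Agt, Hp, Vtn and the serpins Serpina1a, Serpina1c and Serpina3k. The domain of Plg (plasminogen) was covered to 81.5% and 49.7% in B6, 63.5% and 48.8% in MSM, 85.3% in F1 BM and 35.1% in F1 MB. That of Alb (albumin) varied more between libraries, with 66.6% and 27.8% in B6, 31.1% and 18.6% in MSM, 82.8% in F1 BM and 27.9% in F1 MB. Serpin genes have near-identical neighbours, as do Gstm1, Gsta3, Mup3 and Mup19, and reads of such copies cannot be assigned with certainty.

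Of 32 genes of drug and xenobiotic metabolism, 6 had a broad domain. They were the uptake transporter Slco1b2 (7137 bp), Cyp2e1 (6470 bp), Gstm1 (5253 bp), Gsta3 (5170 bp), Cyp27a1 (4167 bp) and Cyp8b1 (4130 bp), the enzyme that sets the cholic acid share of bile acids. Of 32 genes of lipid and sterol regulation, 5 did. Among them, Insig2 (6222 bp) and Insig1 (4407 bp) hold the sterol sensor in the endoplasmic reticulum, Abcg5 (4485 bp) exports sterols and Fasn (4046 bp) makes fatty acids. The domain of Insig2 began 5 bp before the annotated start and reached 6216 bp into the gene. Chromatin regulators gave 6 of 52 genes, Setd1b (8888 bp), Brd2 (an acetyl-lysine reader, 5864 bp), Zmiz1 (5172 bp), Sin3a (a deacetylase scaffold, 5117 bp), Kmt2e (5015 bp) and Smarca2 (4021 bp).

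Enzymes of amino acid breakdown and the urea cycle were picked out after the members had been seen, so their number carries no weight. A textbook list of 56 such genes held 27 members. Among the wider ones were Mat1a (13342 bp), Got1 (7465 bp), Cdo1 (cysteine dioxygenase, 7194 bp), Ass1 (6908 bp), Hgd (6347 bp), Ahcy (6258 bp), Gls2 (6216 bp), Hpd (5896 bp) and Tat (5768 bp). These act on methionine, cysteine, glutamine and tyrosine or in urea synthesis.

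Lists of genes used in every cell gave no member, namely 50 ribosomal protein genes, 31 proteasome genes and 49 respiratory chain genes. Joined domains in every list lay over 26, 17 and 31 of them, with median widths of 1653, 1474 and 1610 bp, near the 1816 bp of all protein-coding genes with such a domain. The median was 2539 bp for the chromatin regulators, 2745 bp for the nuclear receptors, 4193 bp for the signalling list and 4601 bp for the secreted proteins. Other genes of general use did have broad domains, such as the chaperone genes Hspa8 and Dnaja1 and, outside the list of 50, the mitochondrial ribosomal protein gene Mrps18b, all 3 named after their widths were seen. The tissue label was checked with cell type markers. A peak lay within 1 kb of the start of 7 of 8 hepatocyte marker genes in every library, and Alb, Ass1 and Tat had broad domains. Of 13 Kupffer cell markers 0 to 3 had such a peak, depending on the library, of 12 endothelial markers 0 to 9, of 10 stellate cell markers 0 to 1, of 6 bile duct markers 0 to 1 and of 10 lymphocyte markers 0 to 1. No gene of these 5 lists, and none of 30 genes of other lineages, started in a broad domain. The endothelial marker Kdr had a domain of 4039 bp that lacked a peak in B6 replicate 2 alone. Peaks of a whole liver cannot tell how many cells carried them.

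Promoter sequence differed between the gene groups. Promoters under broad domains had a median of 16 CpG pairs in the window of the 3 sequences shown above, against 22 in the 3876 promoters under narrower start domains and 11 in all 21911. Of the 370, 95 (25.7%) had 5 CpG pairs or fewer, against 6.71% under narrower domains and 34.8% of all genes. The hepatocyte transcription factors under broad domains had a median of 32 CpG pairs, and 0 of 9 had 5 or fewer. The signalling genes had a median of 25, the chromatin regulators 27.5 and the immediate early genes 19. The secreted protein genes had a median of 4, and 16 of 20 had 5 or fewer, as had 4 of 6 drug metabolism genes.

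The annotated start was covered more often at CpG-poor promoters. A peak lay over it in 72.5% and 28.8% of those 80 domains in the B6 libraries, 45% and 41.2% in MSM, 60.0% in F1 BM and 42.5% in F1 MB. At the other 206 the values were 60.7% and 18.4%, 31.1% and 32.5%, 28.6% and 31.1%. The direction was the same in all 6 libraries, and the gap was widest in F1 BM. Start domains under 4 kb had the same direction in 5 libraries, again with the widest gap in F1 BM (53.6% at 233 CpG-poor promoters and 24.8% at 2542 others), but not in F1 MB (25.3% and 25.7%). Whole broad domains held a median of 25.1 CpG pairs per kb, against 55.4 in narrower start domains.

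Short sequence motifs were searched by their letters on both strands of the same window. TATAAA was found in 13.8% of promoters under broad domains, in 6.50% under narrower start domains and in 12.7% of all promoters. CCAAT was found in 43.5%, 35.1% and 39.0%. GGGCGG was found in 52.7%, 62.2% and 43.0%, CACGTG in 13.2%, 10.6% and 7.74%, and TGACGT in 8.38%, 15.0% and 8.64%. Among broad domains with 1 start, TATAAA was present in 17 of 80 CpG-poor promoters and in 26 of the other 206. Such a match is a description of the letters and not a binding site.

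**Figure D3:**
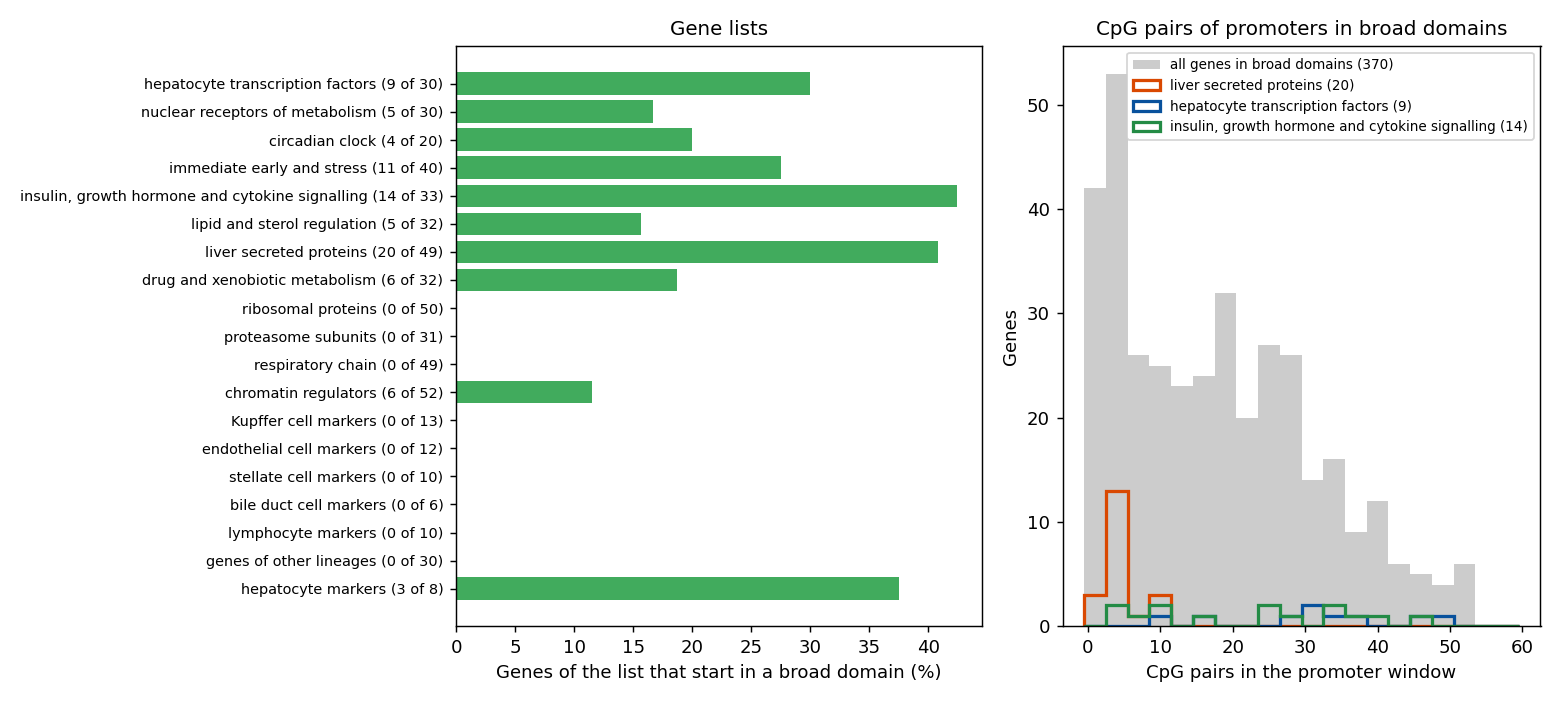
Left, percent of each gene list that starts in a broad domain, with counts in brackets. Right, number of CpG pairs in the promoter window for all 370 genes in broad domains (grey) and for 3 lists (outlines). Bars are present for the transcription factor, receptor, clock, immediate early and stress, signalling, lipid, secreted protein, drug metabolism, chromatin and hepatocyte marker lists and absent for the ribosomal, proteasome and respiratory chain lists and for the lists of other cell types. The secreted proteins gather at the CpG-poor end.

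Coverage of the domains differed more between the 2 B6 mice than between the strain means, while the 2 MSM mice lay close together. Peaks covered 1.53 and 0.926 Mb of the broad domains in the B6 libraries, 1.15 and 1.12 Mb in MSM, 1.42 Mb in F1 BM and, lower, 1.00 Mb in F1 MB. The B6 libraries lay above and below all the others. The domains were chosen by the pooled width of these same peaks. In 73 of them only B6 replicate 1 had a run of joined peaks of at least 4 kb. The strain comparisons of covered length, covered share and peak number below therefore describe the chosen domains. They are not tests of the strains apart from that choice. B6 averaged 1.23 ± 0.426 Mb and MSM 1.13 ± 0.0195 Mb (SD, n = 2 each). The difference, −0.0955 Mb for MSM minus B6, was smaller than the pooled SD within strains of 0.301 Mb (two-sided exact permutation test over 6 assignments, p = 1, smallest possible 0.333). Without B6 replicate 1 the difference turned to 0.182 Mb, and without B6 replicate 2 it was −0.394 Mb, so its direction rested on which B6 library was kept. The median share of a domain under peaks was 84.3% and 50.4% in B6, 61.6% and 61.7% in MSM, 77.4% in F1 BM and 54.9% in F1 MB. It differed by −5.70 percentage points between the strains, against a pooled SD of 16.9 (exact permutation test, p = 1, smallest possible 0.333). Without B6 replicate 1 this too turned, to 12.5 points. The total length under peaks in the lists ran in nearly the same order, from 6.28 Mb in B6 replicate 2 to 16.02 Mb in B6 replicate 1, and the spread between libraries moved with it. When every list was limited to the same covered length, which left 172 domains, the difference was −0.0575 Mb with a pooled SD of 0.0700 Mb, and that in median share −4.41 points with a pooled SD of 8.98 (exact permutation p = 1 for both). The domains chosen changed as well under this setting.

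Among the libraries, B6 replicate 1 covered most of the domain in 197 domains and F1 BM in 107. B6 replicate 2 covered least in 175 and F1 MB in 90. The median of the highest fold enrichment in a domain was 12.8 and 7.62 in B6, 9.84 and 10.6 in MSM, 7.40 in F1 BM and 8.55 in F1 MB. F1 BM thus had the lowest folds and the second longest coverage. The median over all peaks of each list was 5.23 and 4.49 in B6, 4.93 and 4.996 in MSM, 3.38 in F1 BM and 4.57 in F1 MB, which is not comparable with the domain values, since those are the highest of several peaks.

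The number of peaks within a domain gave another picture. A broad domain held a mean of 3.36 and 3.35 peaks in the B6 libraries and 3.88 and 3.89 in the MSM libraries. F1 BM had 3.88 and F1 MB 3.34. The strains did not overlap, and the difference of 0.528 peaks exceeded the pooled SD of 0.00686 (two-sided exact permutation test, p = 0.333, the smallest possible with 2 libraries per strain). When all lists were limited to equal numbers of peaks it was 0.0987 peaks, within a pooled SD of 0.572. Per kb of covered length the broad domains held 0.717 and 1.18 peaks in B6 and 1.104 and 1.133 in MSM, so that the strains overlapped (difference 0.171, pooled SD 0.231, exact permutation p = 1). In start domains under 4 kb the means were 1.798 and 1.52 in B6 and 1.71 and 1.73 in MSM, so there the strains overlapped. Both MSM libraries had more peaks than both B6 libraries in 62 broad domains (19.0%, against a background of 6.98% over all 3639 start domains), and fewer in 15 (4.60%, background 4.15%). Narrower domains make up most of that background and hold fewer peaks in which to differ. At Noct there were 4 peaks in each B6 library and 10 and 8 in MSM. At Sin3a there were 2 in each B6 library and 5 in each MSM library, and the same numbers were found at Ppp1r3c. When every list was limited to the same number of its strongest peaks, the difference fell to 0.0987 peaks and lay within the spread (exact permutation p = 1), and with the same covered length it was 0.0320 (exact permutation p = 1).

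**Figure D4:**
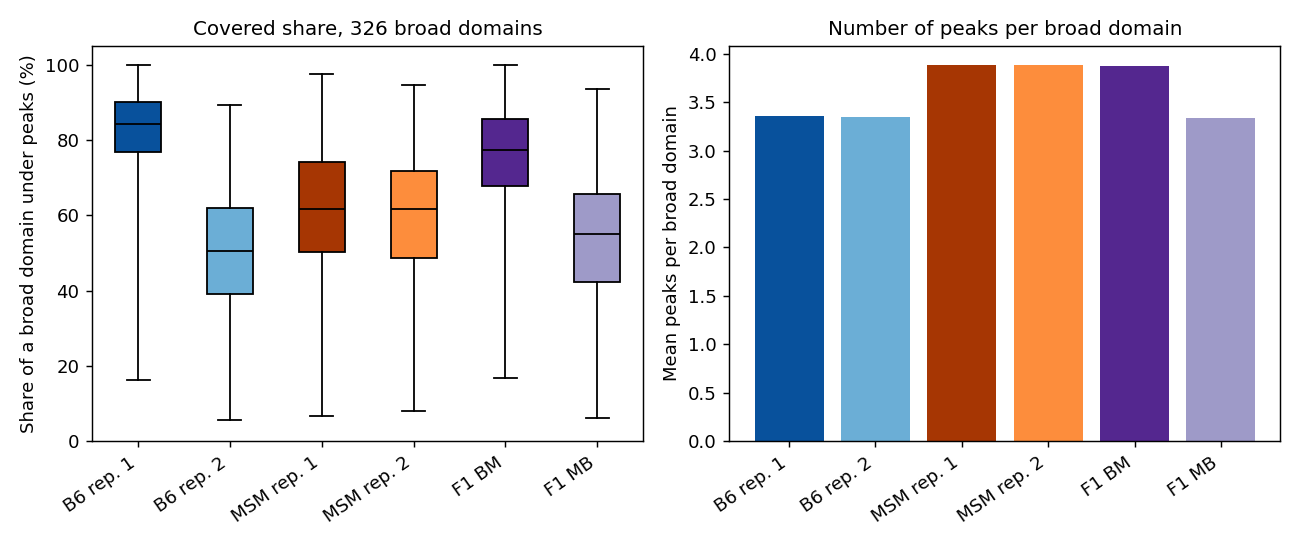
Left, share of each of the 326 broad domains under peaks in percent, by library (line, median; box, quartiles; whiskers, lowest and highest). Right, mean number of peaks per broad domain by library, from 0. The B6 libraries have the highest and the lowest median share, 84.3% and 50.4%, but nearly the same number of peaks, 3.36 and 3.35.

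Single domains were compared by whether the libraries of the strains overlapped in covered length. Both B6 libraries covered more than both MSM libraries in 58 of 326 broad domains (17.8%), against 15.6% of all 3639 start domains. Both MSM libraries covered more in 16 (4.91%), against 3.74%. Both shares lay near their background. In 252 domains the strains overlapped, and in 178 of the 326 B6 replicate 1 was the highest and B6 replicate 2 the lowest of the 4 parental libraries. With 2 libraries per strain the exact permutation test cannot go below 0.333 for a single domain, and no test was made for single domains. Leaving out B6 replicate 2 raised the first count to 281, and leaving out B6 replicate 1 raised the second to 182. With every list limited to the same covered length, which left 172 domains, 47 were higher in B6 and 25 in MSM.

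Among domains higher in B6, the gap between the lower B6 and the higher MSM library was widest at Clec2d, a C-type lectin gene (4658 bp, chr6:129180533-129185190). It was covered to 85.7% and 71.0% in B6, 27.4% and 34.2% in MSM, 96.3% in F1 BM and 59.2% in F1 MB. Next came the domain of Nup62, Il4i1 and Atf5, covered to 76.9% and 59.8% in B6, 27.6% and 25.8% in MSM, 68.5% in F1 BM and 28.1% in F1 MB. Here F1 BM lay in the B6 range and F1 MB just above MSM. Clpx, a mitochondrial unfoldase that also acts in heme synthesis, had 88.6% and 64.0% in B6, 38.3% and 37.3% in MSM, 82.9% in F1 BM and 55.1% in F1 MB. H1f0 and Gcat shared a domain with 91.5% and 63.5% in B6, 38.1% and 24.5% in MSM, 56.8% in F1 BM and 39.1% in F1 MB. Slc35g1 had 81.2% and 36.7% in B6, 11.8% and 12.7% in MSM, 77.1% in F1 BM and 42.2% in F1 MB. At each of the domains named in this paragraph both hybrids lay above both MSM libraries.

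Others of the 58 carry known liver roles. They include the glutathione transferases Gstm1 (92.9% and 50.4% in B6, 28.3% and 31.6% in MSM) and Gsta3 (72.2% and 63.2% in B6, 46.8% and 48.8% in MSM). Prox1 was at 98.5% and 78.2% in B6 and 74.0% and 73.5% in MSM. Errfi1 was at 86.2% and 47.3% in B6 and 31.8% and 38.8% in MSM, and Zmiz1 at 95.1% and 79.3% in B6 and 56.5% and 62.7% in MSM. Of the 20 secreted protein genes, 5 were among the 58 (Azgp1, Trf, F5, Agt and Vtn) and none was among the 16. Over all broad domains these shares were 17.8% and 4.91%, and no difference between the list and the rest was tested. Setd1b passed by 0.236 percentage points, with 50.3% in the lower B6 library and 50.1% in the higher MSM library.

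Of domains higher in MSM, Zfp949 stood apart (4731 bp, chr9:88547600-88552330). This zinc finger gene was covered to 16.3% and 5.62% in B6, 73.3% and 75.4% in MSM, 86.9% in F1 BM and 63.7% in F1 MB. Both hybrids lay far above both B6 libraries, and the gap of 57.0 percentage points exceeded the widest gap in the other direction, 36.9 points at Clec2d. Lrig3, a membrane protein of growth factor signalling, had 48.0% and 22.2% in B6, 64.1% and 65.5% in MSM, 40.96% in F1 BM and 27.7% in F1 MB, so both hybrids lay within the B6 range. Asgr1, a subunit of the asialoglycoprotein receptor, had 57.7% and 29.2% in B6, 73.2% and 73.4% in MSM, 57.3% in F1 BM and 48.4% in F1 MB. Zfp809, a zinc finger gene that silences retroviral sequence, had 50.3% and 24.9% in B6, 68.1% and 62.3% in MSM, 77.2% in F1 BM and 60.4% in F1 MB. Cyp8b1 had 65.7% and 7.82% in B6, 77.4% in both MSM libraries, 82.9% in F1 BM and 61.2% in F1 MB. Zinc finger genes have many similar copies, and reads of MSM were placed on the B6 sequence.

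**Figure D5:**
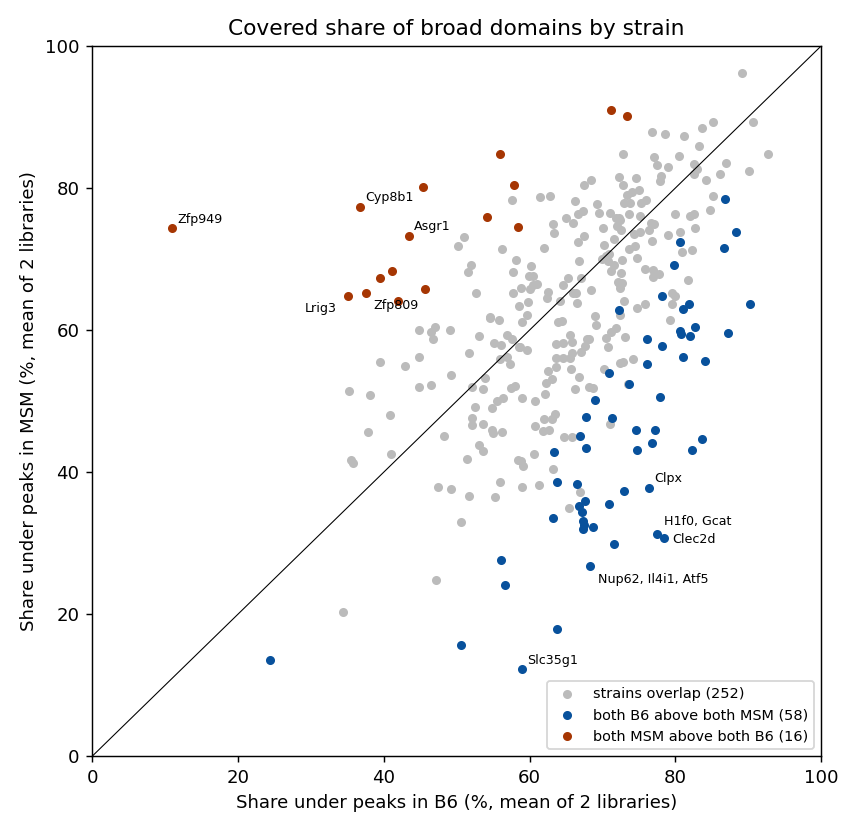
Mean share of each broad domain under peaks in B6 (x axis, percent) and in MSM (y axis, percent), 2 libraries each, with the line of equal shares. Blue points are the 58 domains with both B6 libraries above both MSM libraries, red points the 16 in the opposite case and grey points the 252 that overlap. Zfp949 lies far above the line, and Clec2d and Atf5 far below it.

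The hybrids differed from each other at nearly every domain. F1 BM covered more than F1 MB in 317 of 326 broad domains (background 82.4% of all 3639 start domains). Its whole list was also longer, with 20173 peaks over 12.3 Mb at a median fold of 3.38, against 13235 peaks over 7.46 Mb at a median fold of 4.57 in F1 MB. F1 BM covered more than all 4 parental libraries in 107 broad domains (background 15.6%), and F1 MB less than all of them in 91 (background 27.3%). At the 58 domains higher in B6, F1 BM lay above both MSM libraries in 57 and F1 MB in 29, against 83.7% and 42.9% of the 566 such start domains of any width. At the 16 domains higher in MSM, F1 BM lay above both B6 libraries in 10 and F1 MB in 2, against 66.2% and 25% of 136. With 1 library per cross, the direction of the cross, the mouse and the library with its peak list cannot be told apart.

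Repeats took a smaller share of the domains than of their surroundings. Soft-masked sequence of the genome made up 16.6% of the broad domains and 26.4% of the 2 kb on either side. For start domains under 4 kb the values were 10.6% and 27.4%, so the lower share was not particular to broad domains. Within the broad domains soft-masked sequence was 12.1% of the sequence under peaks in all 6 libraries, 19.1% of that under peaks in some and 20.3% of that under peaks in none. In start domains under 4 kb the corresponding shares were 7.46%, 12.03% and 10.7%. The domains were spread over all autosomes and the X chromosome. The share of genes that started in one was highest on chromosomes 15 (3.44%, 27 of 784) and 1 (3.08%, 37 of 1203). On the X chromosome it was 0.422%, with 4 domains (over Gk, Rgn, Ddx3x and Stag2), and on the Y chromosome 0 of 183.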

How the data were processed

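H3K9ac ChIP-seq peak lists of 6 adult livers were analysed, 1 list per library, called separately. Groups and replicate numbers came from the sample titles. The authors trimmed the 50-bp read pairs with Trim Galore. Their methods name Bowtie 2 with a long maximal insert, while the submitters' processing notes list HISAT2, SAMtools and MACS2, with mm10 (GRCm38). The threshold and the use of the inputs as control are not given in the sources used here. Reads of MSM were mapped to the B6 sequence and may be lost where it differs.

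The deposited lists gave, for each peak, a fold over background, a linear ratio from the authors' peak caller. The −log10 of each p-value and q-value was likewise the authors' own, and the lowest −log10 q was 1.30 to 1.35. The score in the deposited lists was not used. The offset of the summit in the deposited lists placed the strongest point of each peak.

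With Python 3.11.15 and numpy 2.4.6, peaks of all lists at most 500 bp apart were joined, and domains of at least 4 kb with a protein-coding start and a peak in every list (overlap of at least 1 bp) were kept. Each of 21911 gene symbols had 1 start, that of its longest GENCODE M21 gene. Covered length, peaks and the highest fold were taken per library. Repeats were the lower-case bases of the RefSeq GRCm38 genome. Strain values were compared by exact permutation of the 4 parental libraries (two-sided, 6 assignments). Functions were tested on simulated data, and figures were drawn with matplotlib 3.10.9.

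Genes were named by rule: the 10 widest domains, the 5 with the largest lowest share, the 5 with the largest gap in each direction, the 4 widest of each list (all for hepatocyte transcription factors), the domains nearest the limit and promoters among the 10 widest. Some genes that these rules name, and 1 promoter, are not reported here. Other names, such as members of a list beyond these 4, were chosen after their values were seen. The members and lists were chosen with earlier results of these data known. Alternatives were the joining distance, width, starts, peak thresholds, list size and leaving out libraries, with leaving out the hybrids chosen after seeing the data.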

Additional observations from a re-analysis of the deposited data

How the results depend on the processing

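Of 133 repeats of the 8 main results under other settings, 109 were labelled the same. For a strain difference this meant only the same sign, and for a count it meant within 1.5 times the main count. For the extent it meant the same sign and a change below the pooled SD within strains. The repeats paired by replicate number are among the 109, and their differences equal the main ones by construction. The 109 also include the difference in peaks per domain, which fell from 0.528 with lists of equal number (to 0.0987, pooled SD 0.572) or equal covered length (to 0.0320, pooled SD 0.954), both within the spread (exact permutation p = 1). The strain difference in covered length ran from −0.394 to 0.182 Mb and that in median share from −22.8 to 12.5 percentage points when 1 parental library was left out, with the sign reversed without B6 replicate 1. The domains higher in B6 numbered 39 to 281 and those higher in MSM 17 to 182 when 1 parental library was left out. They were 281 without B6 replicate 2, and 182 without B6 replicate 1 and 31 without MSM replicate 2 for MSM. A lone library was assumed to vary like the other strain. Joining at 200 bp gave 145 domains with 165 genes, of which 24 were higher in B6 and 8 in MSM. A minimum width of 3 kb gave 651 domains with 744 genes, 114 higher in B6, 31 higher in MSM and a downstream minus upstream extent of 2171 bp. A minimum of 5 kb gave 184 domains with 217 genes, 36, 5 and 3868 bp. The main extent was 2883 bp, and starts of all transcripts moved it to 3727 bp and the count higher in MSM to 28. The same covered length in every library gave 172 domains with 197 genes, 47 higher in B6 and 25 higher in MSM. These settings changed the peaks used, the limits or the annotated starts, and why each value moved was not tested. Of the 370 genes, 44.6% were kept when peaks were joined at 200 bp, 53.2% with equal covered length, 58.6% at 5 kb, 70.3% with equal peak numbers, 76.2% without B6 replicate 1 and 88.6% with −log10 q of at least 5. A lower width, longer joining and more starts can only add genes.

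Deviations of same-numbered B6 and MSM libraries correlated at −0.0752 over the 326 domains. With 2 libraries per strain, pairs of unlike number must give the same value with the opposite sign, 0.0752. Whether same-numbered libraries shared more than a number cannot be told from this. With the replicate number as a block (exact sign-flip test) the differences were −0.0955 Mb (p = 1), −5.70 points (p = 1) and 0.528 peaks (p = 0.5). The pairing changed no call. Leaving out F1 BM, F1 MB or both, chosen after seeing the data, gave 290, 328 and 289 domains. The lists hold no read counts, so a gap between peaks cannot be told from sequence too thinly read, and a width of 4 kb in the pooled lists need not be reached in any 1 mouse.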

Other observations

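Some genes had wide domains over their start but no peak in at least 1 list, and 8 domains of at least 4 kb were left out for that reason. At Cyp2b9, a cytochrome P450 with near-identical neighbours (5011 bp), peaks covered 4891 and 2816 bp in B6, 0 bp in both MSM libraries, 3245 bp in F1 BM and 0 bp in F1 MB. At Dbp, a clock output factor (4264 bp), they covered 1418 and 0 bp in B6, 2344 and 248 bp in MSM, 343 bp in F1 BM and 247 bp in F1 MB. The list without a peak was B6 replicate 2 at Hlx and at the endothelial marker Kdr, MSM replicate 1 at Gas1 and F1 MB at Dio1 (the thyroid hormone deiodinase of liver, 5326 bp) and Paqr9. A further 212 domains of at least 4 kb held no protein-coding start.

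Other classes of genes among the members were seen only after the names were known. Solute transporters included Slc38a3 (glutamine, 9208 bp), Slc7a2 (arginine, 8643 bp), Slc25a15 (mitochondrial ornithine, 7985 bp), Slc27a2 (very long chain fatty acids, 6640 bp) and Slc2a2 (glucose, 4586 bp). Chaperone genes included Hspa8 (4484 bp), Dnaja1 (4755 bp) and the pair Hspd1 and Hspe1 (4826 bp), which share a start region and were covered more in both MSM than in both B6 libraries. In the domain of the repressor gene Bcl6, the number of peaks was 9 and 10 in B6 and 14 and 15 in MSM.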
